A study of Mus musculus with 6 samples.

Results

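The genes described here are 10 nuclear genes whose proteins copy, transcribe or stabilise the nucleic acids of mitochondria, or regulate the genes that do so: Polrmt, Tfam, Tfb2m, Twnk, Polg, Tfb1m, Lrpprc, Slirp, Ppargc1a and Esrra. They were chosen by name, not by their values, and all 10 are among the 20015 rows of the deposited table. RNA from quadriceps, the knee extensor muscle, was sequenced in 3 libraries labelled as injured at the anterior cruciate ligament (ACL) and 3 labelled as non-injured. The name given to the deposited table speaks of myonuclear RNA, that is, RNA of muscle fibre nuclei, while the labels' extraction text gives total RNA and describes no isolation of nuclei. Which of these the libraries hold cannot be told from the labels, and mitochondrial-genome transcripts took 6.20% to 11.2% of their counts. Both groups use the letters A, B and C. Mus musculus is the labelled organism, and no strain, age, sex, time after injury or manner of injury is given in the labels used here. The series text speaks of human tissue and of the state before ligament reconstruction, but every gene used here is a mouse gene model. Nothing in the labels says that replicate libraries are from different animals, and the p-values therefore cover only the scatter among these 6 libraries, part of which may be technical.

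The mitochondrial genome is a small circular DNA, kept in many copies per cell, and all proteins that replicate or transcribe it are made from nuclear genes. Polrmt is the RNA polymerase of mitochondria, Tfam bends and packages the DNA and recruits the polymerase, and Tfb2m helps to melt the promoter. Twnk unwinds the DNA and Polg copies it. Lrpprc and Slirp form a complex that keeps mitochondrial mRNAs stable. Muscle fibres hold many mitochondria, and the coactivator Ppargc1a, with the nuclear receptor Esrra, is known there as a regulator of mitochondrial content in endurance exercise.

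None of the 10 genes differed between injured and non-injured quadriceps at an adjusted p under 0.05. In edgeR's quasi-likelihood test 0 of 10 passed and at an unadjusted p under 0.05 there were 0 as well. DESeq2 and limma-voom each called 0. Over all 16095 genes tested, 0.746% passed edgeR's test in either direction and 15.4% had an unadjusted p under 0.05. DESeq2 called 252 of all genes higher and 75 lower, and limma-voom 53 higher and 6 lower. With the letter as a replicate block, 0 of 10 passed, against 5.86% of all genes. The log2 fold changes of the 10 genes, injured over non-injured, ran from -0.27 for Tfam to 0.11 for Polrmt, with a median of -0.05. All genes tested had a median of 0.00, and the 9214 genes with a mean between 38.2 and 689.5 counts per library, the range of the 10 genes, had a median of -0.05. All 10 of the 95% intervals lay within a change of 2-fold in either direction. The share of all genes with intervals this narrow was not counted. With 3 libraries a group, a p that misses the threshold does not show that a gene was unchanged.

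**Figure D1:**
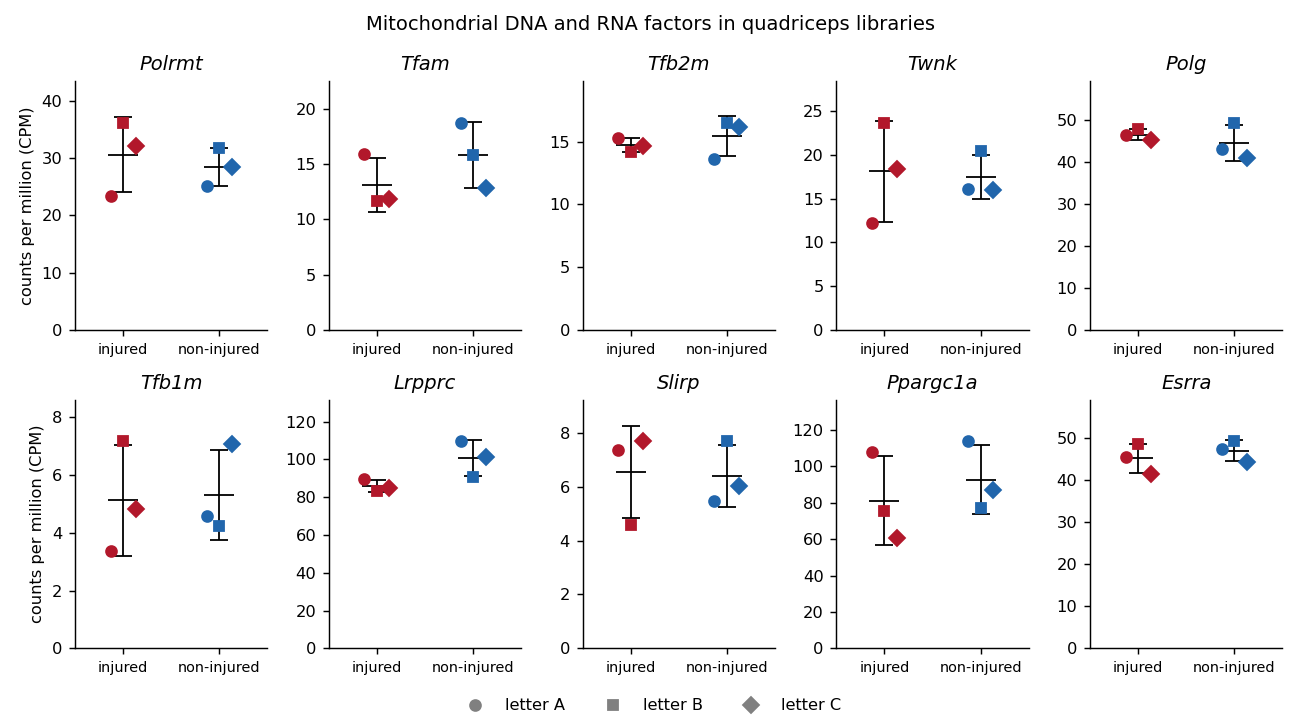
CPM (read counts scaled to library size by TMM, linear axis from 0) of each of the 10 genes in each library, with injured on the left and non-injured on the right; marker shapes are the letters, the horizontal line is the mean and the bar is 1 SD (n = 3 per group). Lrpprc is the 1 gene whose injured libraries all lie below all non-injured ones, and Ppargc1a is highest in letter A of both groups.

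Facts of the whole series that bear on these values are few. Library totals ran from 6.45 to 7.50 M counts in injured and from 7.23 to 8.75 M in non-injured libraries. All 8 muscle fibre markers looked for were detected, with summed levels of 166000 to 173000 CPM in injured and 180000 to 188000 CPM in non-injured libraries. None of these 8 passed the test. Markers of macrophages summed to 88.2 to 164 CPM in injured and 37.8 to 45.0 CPM in non-injured libraries, with 4 of 8 higher. Those of fibro-adipogenic cells, the matrix-making cells of muscle, summed to 438 to 712 CPM in injured and 182 to 234 CPM in non-injured libraries, with 2 of 6 higher. Endothelial markers summed to 81.3 to 84.8 CPM in injured and 68.1 to 80.5 CPM in non-injured libraries, and adipocyte markers to 19.5 to 26.9 CPM in injured and 35.8 to 57.7 CPM in non-injured libraries, with 0 of 5 past edgeR's test in each. Erythroid markers summed to 132 to 324 CPM in injured and 71.4 to 151 CPM in non-injured libraries, with 1 of 5 higher, and satellite cell markers to 17.1 to 29.5 CPM in injured and 18.2 to 26.0 CPM in non-injured libraries, with 0 of 3 past the test. Whether the preparations were whole muscle or nuclei, fewer cells of a type and less RNA per cell cannot be told apart in pooled RNA, and the part that this mixture has in the values below was not tested.

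The start regions of 3 of the genes are printed because they stand for the genes described next and differ in the motifs they hold. Sequences are from RefSeq on GRCm38.p6, run from 250 bases before to 50 bases after the start of transcription, and are read 5′ to 3′ on the strand of the gene. Capitals mark matches to CCGGAAG, the core bound by ETS factors such as Gabpa, or to the consensus site of Nrf1. Both strands were searched.
Tfam, chr10:71237995-71238294, minus strand: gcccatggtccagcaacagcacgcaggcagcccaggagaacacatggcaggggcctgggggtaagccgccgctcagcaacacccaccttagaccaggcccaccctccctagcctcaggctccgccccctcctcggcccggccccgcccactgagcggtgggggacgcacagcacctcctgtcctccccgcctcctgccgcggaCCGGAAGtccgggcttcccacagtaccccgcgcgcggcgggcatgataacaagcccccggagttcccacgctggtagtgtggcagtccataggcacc
Polrmt, chr10:79746532-79746831, minus strand: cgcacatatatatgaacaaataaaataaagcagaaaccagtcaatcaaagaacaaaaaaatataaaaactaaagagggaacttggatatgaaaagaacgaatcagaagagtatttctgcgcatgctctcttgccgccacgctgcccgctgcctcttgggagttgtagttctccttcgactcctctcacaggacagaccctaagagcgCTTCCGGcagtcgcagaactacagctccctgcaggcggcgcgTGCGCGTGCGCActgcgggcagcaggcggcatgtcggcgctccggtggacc
Lrpprc, chr17:84790737-84791036, minus strand: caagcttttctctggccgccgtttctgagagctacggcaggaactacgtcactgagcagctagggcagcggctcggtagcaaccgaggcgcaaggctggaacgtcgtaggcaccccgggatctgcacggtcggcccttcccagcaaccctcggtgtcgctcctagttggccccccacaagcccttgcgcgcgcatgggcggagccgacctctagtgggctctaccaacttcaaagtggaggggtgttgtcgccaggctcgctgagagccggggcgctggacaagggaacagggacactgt
Tfam holds the ETS core once. Polrmt holds it once, on the opposite strand, and has an Nrf1 match across its start. The Lrpprc window has neither. RefSeq gave 11 such windows for the 10 genes, 1 each and a pair for Twnk. The ETS core was found for 5 of the 10 genes (Tfam, Polrmt, Slirp, Twnk and Polg) and in 11.6% of the 21263 windows of protein-coding genes. Nrf1 matches were found for Polrmt alone among the 10 and in 1.80% of those windows. AAGGTCA, the core bound by Esrra and related receptors, was found in 1 window of Twnk and in 4.08% of windows. A match is a run of letters, and no binding was measured here.

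None of the core transcription genes passed the test, and their 95% intervals all included 0. Polrmt (chromosome 10, 79736123 to 79746581 on mm10, minus strand) had 23.4, 36.2 and 32.2 CPM in injured libraries A, B and C, against 25.1, 31.8 and 28.4 CPM in non-injured A, B and C. The groups overlapped, and letter A was the lowest in both. Its log2 fold change was 0.11 ± 0.18 (SE), with a 95% interval from -0.28 to 0.49 and an edgeR adjusted p of 0.825. Tfam (chromosome 10, 71225464 to 71238280, minus strand) had 15.9, 11.6 and 11.8 CPM in injured A, B and C, against 18.7, 15.8 and 12.9 CPM in non-injured A, B and C. Within each letter the injured value was the lower one, yet the groups overlapped, since injured A lay above non-injured B and C. The log2 fold change of Tfam was -0.27 ± 0.21 (SE), with an interval from -0.72 to 0.18 and an edgeR adjusted p of 0.579. It was -0.45 without injured A and -0.15 without non-injured A. Tfb2m (chromosome 1, 179528055 to 179546267, minus strand) had 15.3, 14.2 and 14.7 CPM in injured libraries, against 13.6, 16.5 and 16.2 CPM in non-injured libraries. Its injured values lay between the lowest and the highest non-injured value, with a log2 fold change of -0.07 ± 0.17 (SE) and an edgeR adjusted p of 0.887.

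The helicase and the polymerase of mitochondrial DNA did not pass the test either. Twnk (chromosome 19, 45005663 to 45012762, plus strand) had 12.2, 23.7 and 18.4 CPM in injured A, B and C, against 16.1, 20.4 and 15.9 CPM in non-injured A, B and C. The injured libraries held both the lowest and the highest of the 6 values. Its log2 fold change was 0.05 ± 0.23 (SE), with an interval from -0.44 to 0.54 (edgeR adjusted p of 0.945). Twnk shares 12.6% of its annotated exon bases with Mrpl43, a mitochondrial ribosomal protein gene on the opposite strand, and the strand setting of the counting is not given in the sources used here, so reads of this stretch cannot be told apart. Polg (chromosome 7, 79446231 to 79466362, minus strand) had 46.4, 48.0 and 45.4 CPM in injured A, B and C, against 43.1, 49.5 and 41.1 CPM in non-injured A, B and C. All 6 values of Polg fell within a narrow span, and its log2 fold change was 0.06 ± 0.14 (SE), with an interval from -0.24 to 0.36 (edgeR adjusted p of 0.869). Of its exon bases, 8.57% are shared with Fanci, a DNA repair gene on the opposite strand. Fanci has no row of its own in the deposited table, and what part its reads have in Polg was not tested.

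Tfb1m, which methylates the ribosomal RNA of the small mitochondrial subunit, had the fewest counts of the 10. Tfb1m (chromosome 17, 3519256 to 3557781, minus strand) had 3.37, 7.18 and 4.84 CPM in injured libraries A, B and C, against 4.59, 4.25 and 7.10 CPM in non-injured A, B and C. These rest on 22 to 53 counts per library. The order of the letters differed between the groups, and the log2 fold changes within letters A, B and C were -0.45, 0.76 and -0.55. The fitted log2 fold change was -0.05 ± 0.34 (SE), with the widest interval of the 10, from -0.78 to 0.69 (edgeR adjusted p of 0.967).

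Lrpprc had the smallest p of the 10 and was the 1 gene whose groups did not overlap. Lrpprc (chromosome 17, 84705247 to 84790789, minus strand) had 89.7, 83.3 and 84.9 CPM in injured A, B and C, against 109.7, 90.9 and 101.5 CPM in non-injured A, B and C. Its mean was 86.0 ± 3.35 CPM in injured and 100.7 ± 9.41 CPM in non-injured libraries (SD, n = 3 each). All injured libraries lay below all non-injured ones, as they did for 9.57% of all genes tested, so 1 of 10 is near the background. The log2 fold change was -0.23 ± 0.14 (SE), with an interval from -0.52 to 0.06 and an edgeR adjusted p of 0.454. With the letter block its unadjusted p was 0.0488, at which 21.8% of all genes had a p under 0.05, and its adjusted p was 0.225. Slirp, the RNA-binding partner of Lrpprc (chromosome 12, 87443896 to 87452206, plus strand), had 7.35, 4.58 and 7.69 CPM in injured A, B and C, against 5.48, 7.69 and 6.02 CPM in non-injured A, B and C. The groups overlapped, with a log2 fold change of 0.03 ± 0.28 (SE) and an edgeR adjusted p of 0.973. Counts were fractional in all 6 libraries for Slirp, as they also were for Tfb2m. Of the annotated exon bases of Slirp, 93.9% are shared with Snw1, a splicing and transcription cofactor gene on the opposite strand. The level of Slirp is therefore uncertain, and reads of Snw1 cannot be told apart from it in that stretch.

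**Figure D2:**
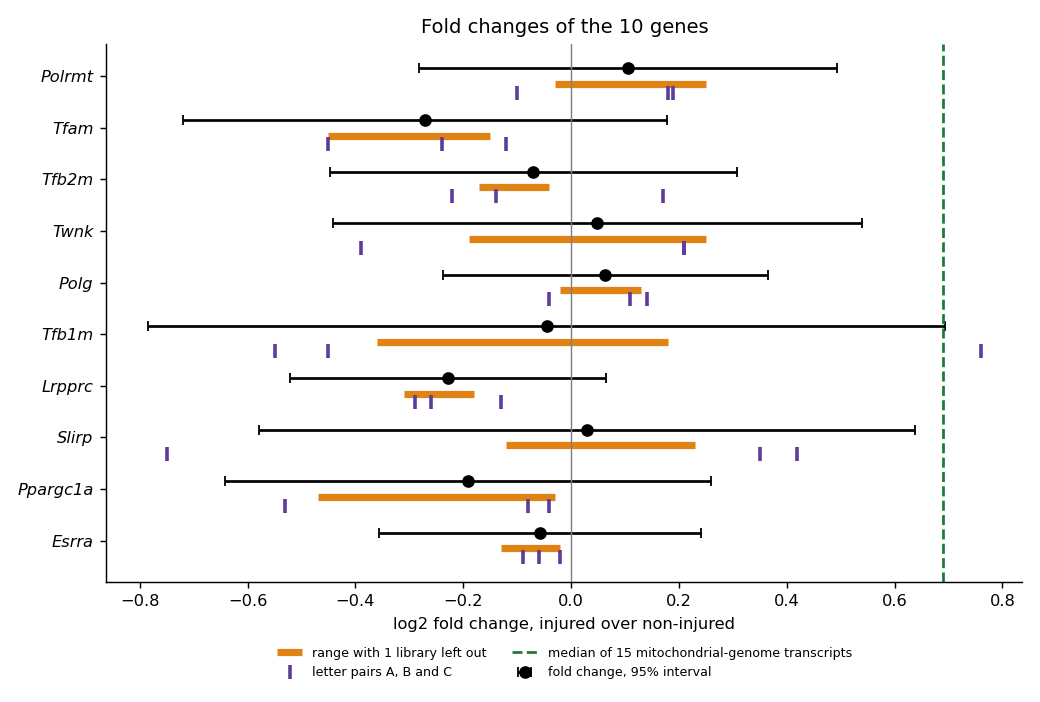
Log2 fold change of injured over non-injured for each gene, with its 95% interval (black), the range when 1 library is left out (orange) and the values within letters A, B and C (purple). All 10 intervals include 0, and 9 of 10 end below 0.69, the median of the 15 mitochondrial-genome transcripts (green dashed line). The share of all genes with such intervals was not counted.

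The coactivator Ppargc1a varied most between libraries for its abundance. Ppargc1a (chromosome 5, 51454250 to 51567726, minus strand) had 107.9, 75.2 and 60.4 CPM in injured A, B and C, against 113.8, 77.3 and 86.9 CPM in non-injured A, B and C. Letter A was highest in both groups, and the groups overlapped. Its mean was 81.2 ± 24.3 CPM in injured and 92.6 ± 18.9 CPM in non-injured libraries (SD, n = 3 each). The log2 fold change was -0.19 ± 0.21 (SE), with an interval from -0.64 to 0.26 and an edgeR adjusted p of 0.718. Within letters A, B and C it was -0.08, -0.04 and -0.53, so that letter C held most of the difference. Without injured C the log2 fold change was -0.03, and without injured A it was -0.47 (edgeR adjusted p of 0.209). Transcripts of Ppargc1a from different promoters were counted together. Esrra, a nuclear receptor that Ppargc1a coactivates (chromosome 19, 6910977 to 6921813, minus strand), had 45.5, 48.6 and 41.6 CPM in injured A, B and C, against 47.4, 49.4 and 44.3 CPM in non-injured A, B and C. The letters kept the order B, A, C in both groups. Its log2 fold change was -0.06 ± 0.14 (SE), with an interval from -0.36 to 0.24 and an edgeR adjusted p of 0.883.

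The spread within groups was wide for some of the genes and narrow for others. The mean coefficient of variation within a group was 25.2% for Ppargc1a, where counting error gives 4.04% and the median of the 500 genes nearest in mean count was 11.0%. Of those 500 genes, 93.2% varied less than Ppargc1a. Twnk varied by 23.1%, more than 87.0% of genes of like count, and Tfb1m by 33.4%, more than 77.0%. Polg, Esrra, Lrpprc and Tfb2m varied by 6.30%, 6.60%, 6.62% and 6.98%, and 8.8%, 11.4%, 15.8% and 6.0% of genes of like count varied less. Counting error gives 5.49%, 5.46%, 3.85% and 9.55% for them in the same order, so the spread of Tfb2m lay under its counting error. With groups of 3 these are descriptions of the libraries at hand.

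**Figure D3:**
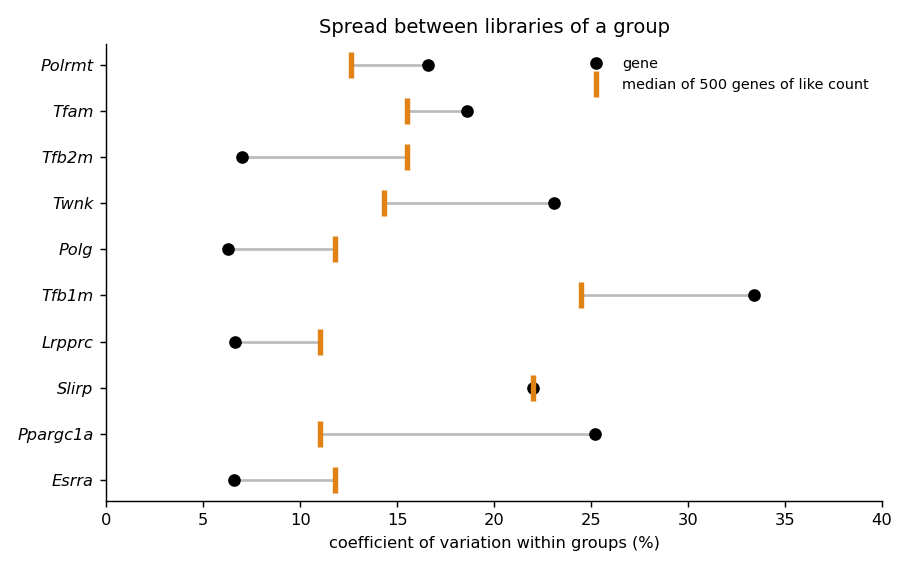
Mean coefficient of variation within the injured and non-injured groups (black points, percent) of each gene, with the median of the 500 genes nearest in mean count (orange bars). Ppargc1a lies farthest above its bar, at 25.2% against 11.0%, and Tfb2m, Polg, Esrra and Lrpprc lie below theirs.

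Letters ordered the libraries in part. For 7 of the 10 genes the same letter was highest in both groups, against 43.4% of all genes tested: letter A for 3 genes (Tfam, Lrpprc and Ppargc1a, against 18.0% of all genes), and letter B for Polrmt, Twnk, Polg and Esrra. For 4 of them (Polrmt, Lrpprc, Polg and Esrra) the lowest letter was shared as well, against 24.1% of all genes. Compared letter by letter, 4 of the 10 genes (Tfam, Lrpprc, Ppargc1a and Esrra) were lower in the injured library in all 3 letters, against 21.9% of all genes, and 0 were higher in all 3, against 21.6%. Of the 10 fold changes 6 were negative, against 49.8% of all genes tested and 57.3% of genes in the same range of counts.

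Levels per length put the regulators and Lrpprc at the top. In CPM per kilobase of annotated exons, Ppargc1a had 12.3 ± 3.69 in injured and 14.1 ± 2.87 in non-injured libraries, Lrpprc 10.1 ± 0.39 and 11.8 ± 1.11, and Esrra 10.3 ± 0.80 and 10.7 ± 0.58 (SD, n = 3 each). These 3 overlapped over the 6 libraries, and Esrra lay above Polrmt in all 6. Polrmt, Tfb2m, Twnk, Polg and Tfam followed, averaging from 6.30 down to 3.26 CPM per kilobase over the 6 libraries, and each overlapped with its neighbour in that order. Slirp and Tfb1m were lowest, at 2.08 and 1.45 CPM per kilobase. The order depends on the length used. The principal transcript of a gene was taken as the longest of those tagged as principal in the annotation. Per kilobase of the principal transcript, Lrpprc and Esrra averaged 21.2 and 20.6 and Ppargc1a 13.4. Tfb1m, at 3.72, then lay above Tfam, at 3.47, and Slirp was lowest at 2.40. Of the lengths used for Slirp, 93.9% of exon bases and 89.0% of the principal transcript match Snw1. The place of Slirp is therefore uncertain by either length.

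None of the other nuclear genes of these pathways passed edgeR's test without the letter block, and 1 passed with it. These lists were fixed by name, with earlier results of these data known, and each is given by its count and its median log2 fold change beside the 0.746% called and the median of 0.00 over all genes. Fold changes were negative for 13 of 21 measured genes that supply or copy mitochondrial DNA and 5 of 6 other transcription genes. They were negative for 25 of 32 RNA-processing genes, 17 of 24 other regulators and 23 of 28 known targets. The share was 49.8% over all genes and 57.3% over those in the count range of the 10 genes. This difference in shares was not tested. Of 21 measured genes that supply or copy mitochondrial DNA, edgeR, DESeq2 and limma-voom each called 0, the unadjusted p was under 0.05 for 4, and the median was -0.06. With the letter block, which called 5.86% of all genes tested, 1 fell, Slc25a36, a carrier of pyrimidine nucleotides. Slc25a36 had 145, 111 and 149 CPM in injured A, B and C, against 167, 189 and 253 CPM in non-injured A, B and C. Its groups did not overlap, and its log2 fold change was -0.58 ± 0.12 (SE) with the block (adjusted p of 0.0116) and -0.59 ± 0.18 without it (edgeR adjusted p of 0.142). Of 6 other transcription genes all 3 tools called 0, the unadjusted p was under 0.05 for 0, and the median was -0.22. The smallest p among the 6 were those of Mterf1a, a transcription terminator (log2 fold change 0.68, mean of 19.0 counts), and Mrpl12, a ribosomal protein (-0.31). Mterf1a has a close paralog, Mterf1b, so its value is uncertain.

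Genes that cut, modify or degrade mitochondrial RNA had a median of -0.11 over 32 genes. None (0) passed by edgeR, DESeq2 or limma-voom, and 1, Fastkd1, had an unadjusted p under 0.05. Fastkd1, an RNA-binding protein of mitochondria, averaged 20.3 ± 2.52 CPM in injured and 27.6 ± 6.98 CPM in non-injured libraries (SD, n = 3 each, edgeR adjusted p of 0.317). Trit1, a tRNA-modifying enzyme, averaged 4.88 ± 0.96 CPM in injured and 7.25 ± 0.57 CPM in non-injured libraries and did not overlap between groups (edgeR adjusted p of 0.328).

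The 24 other nuclear regulators had a median of -0.10, and 0 were called by edgeR, DESeq2 or limma-voom. Sirt1, a deacetylase known to act on Ppargc1a, was the 1 gene of these with an unadjusted p under 0.05. Sirt1 had 16.8, 12.1 and 13.8 CPM in injured A, B and C, against 19.3, 19.1 and 22.5 CPM in non-injured A, B and C. All its injured libraries lay below all non-injured ones, with a log2 fold change of -0.51 ± 0.18 (SE) and an edgeR adjusted p of 0.209. Sirt3, the deacetylase of the mitochondrial matrix, averaged 12.0 ± 2.50 CPM in injured and 15.8 ± 1.35 CPM in non-injured libraries (SD, n = 3 each, edgeR adjusted p of 0.375). The 28 genes known as targets of Ppargc1a and Esrra had a median of -0.06, with 0 past the test by edgeR, DESeq2 or limma-voom and 1 at an unadjusted p under 0.05. That gene, Idh3a, a subunit of a citric acid cycle enzyme, averaged 109 ± 15.6 CPM in injured and 142 ± 19.0 CPM in non-injured libraries (SD, n = 3 each, edgeR adjusted p of 0.274). Perm1, a muscle regulator that is itself induced by Ppargc1a, averaged 98.3 ± 5.54 CPM in injured and 117 ± 16.1 CPM in non-injured libraries (edgeR adjusted p of 0.443).

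**Figure D4:**
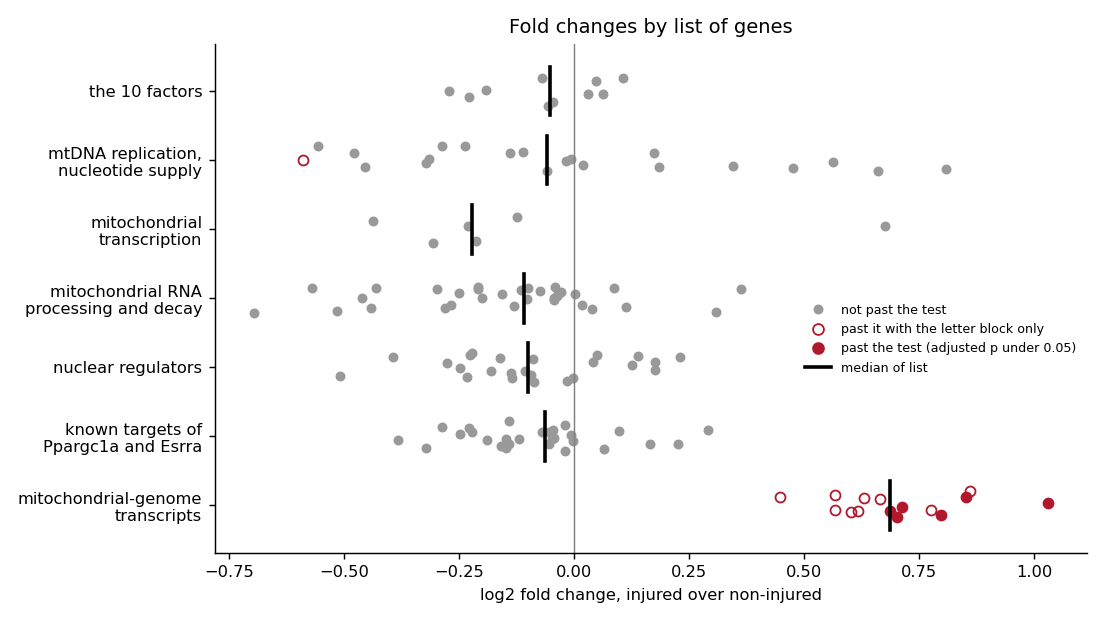
Log2 fold change of injured over non-injured for each gene of the 10 factors and of 6 lists of related genes (points), with the median of each list (black bar); filled red points passed edgeR's test and open red points passed with the letter block only. The 5 lists of nuclear genes have medians between -0.22 and -0.06, and the 15 mitochondrial-genome transcripts lie between 0.45 and 1.03.

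RNA made from the mitochondrial genome took a larger share of counts in injured libraries, while these nuclear factors were not shown to change. The transcripts of the mitochondrial genome took 9.53% to 11.2% of counts in injured and 6.20% to 7.52% in non-injured libraries. How much cytoplasmic RNA each preparation held was not tested. Of 15 measured, 6 rose, and all 15 rose with the letter block. Those with the smallest p were mt-Nd4l, mt-Nd2, mt-Co2 and mt-Nd6, with log2 fold changes of 0.80, 0.71, 1.03 and 0.69. Leaving out injured C, or non-injured B, or non-injured C ended the call of all 15, and leaving out injured A kept 1. Their median log2 fold change was 0.69, and 9 of the 10 nuclear factors had an interval that ended below it, all but Tfb1m. The intervals of 6 of the 10 ended below 0.45, the lowest value among the 15 transcripts. The share of all genes with such intervals was not counted, and genes in the same range of counts had quartiles of -0.23 and 0.14. The difference between the nuclear factors and the mitochondrial transcripts was not itself tested.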

How the data were processed

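The deposited values are estimated counts per gene in 6 libraries, as the authors left them, of which 72.5% to 74.8% per library are whole (tolerance 1e-06). Per the submitters' processing notes the tools were STAR 2.7.8a, Partek and DESeq2, with no role stated, and the builds mm10 and hg19. How reads were assigned to genes and with which strand setting is not given in the sources used here. No row has a maximum under 10. Starts and ends of 9 of the 10 genes equal GENCODE M21 on mm10, an end 1 base further counted as equal; Esrra ends elsewhere, and positions printed are those of GENCODE. Principal transcripts of the 10 genes were searched against all transcripts, and a match of at least 90% identity over at least 50% of the length was found for Slirp alone, with Snw1.

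Counts were rounded, filtered with filterByExpr, TMM-scaled and put through the two-sided quasi-likelihood F test of edgeR (version 4.0.16 in R 4.3.3), with Benjamini-Hochberg adjustment over all 16095 genes and a threshold of 0.05. The test was tried on simulated data. All 10 genes passed the filter, at means of 38.2 to 689.5 counts per library. Standard errors were derived from the log2 fold change and its F value, and intervals cover 95%. CPM use TMM-scaled totals. limma was version 3.58.1 and DESeq2 was 1.42.0.

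Deviations from the group means correlated between same-letter libraries across groups at 0.339, 0.221 and 0.12 for A, B and C over 16095 genes. What A, B and C stand for is not stated, and the main edgeR test left the libraries unpaired. The fit with the letter as a replicate block was run as an alternative, and its values are named as such. The 10 genes and the lists were chosen with earlier results of these data known. Beside the 10 genes, the text names from each list the genes past the threshold with or without the block, up to 4 by smallest p, and otherwise the 2 with the smallest p. Mpv17 and Supv3l1 are named outside this rule, after their values were seen.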

Additional observations from a re-analysis of the deposited data

How the results depend on the processing

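None (0) of the 10 genes passed in any of the 23 alternatives by edgeR, DESeq2 or limma-voom: other scalings, tools and filters, the replicate block, each library or letter left out, and the block with a letter left out or by another tool, the last 2 kinds chosen after seeing the data. Tfam, Lrpprc and Ppargc1a kept a negative sign in all that could be run, and the other 7 genes changed sign in at least 1. No scaling moved the median of all genes by more than 0.05 on the log2 scale. Of the genes that supply or copy mitochondrial DNA, 1 passed with the replicate block, with the block by DESeq2 or limma-voom, and with the block without letter B or C (Slc25a36); 2 passed without both letter A libraries, with or without the block (Slc25a36 and Mpv17); and 0 to 1 passed with 1 library left out. Supv3l1 was the 1 RNA-processing gene called, with the block without letter B, and Idh3a the 1 target called, with the block without letter C and with the block by limma-voom. Mitochondrial-genome transcripts called numbered 15 with the block, 10 with upper quartile scaling, 13 by DESeq2, 14, 0 and 0 without letters A, B and C, 14, 11 and 12 with the block without letters A, B and C, 13 and 15 with the block by DESeq2 and limma-voom, and 0 to 5 with 1 library left out. Over all genes, edgeR called 120, and 943 with the block. Without both letter A libraries it called 165 higher and 132 lower, without letter B 43 and 1, and without letter C 7 and 0. With the block, leaving out letter A, B or C gave 344, 388 and 434 higher and 336, 208 and 306 lower. Tfb1m and Slirp, with means of 38.2 and 47.8 counts, have counting errors of 16.6% and 14.8%, both under their coefficients of variation within groups, and the filter on a mean of at least 50 counts removed both. The cause of these differences was not tested.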
